A study of Mus musculus with 23 samples.

Results

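Glycolysis breaks glucose down to pyruvate, and glycogen is the store of glucose from which muscle feeds that route. The genes of both pathways were followed across the mouse skeletal muscle lineage, from pluripotent cells through cultured myoblasts and myotubes to quadriceps muscle. The set held 45 genes chosen by symbol: glucose transporters, the enzymes of glycolysis, of lactate and glycerol phosphate formation and of glycogen synthesis and breakdown, and their regulatory subunits. All 45 were on the array, among 36095 gene names. For 31 of them the array had 1 probe, and for the other 14 the brightest of several was used.

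RNA was measured on 23 one-colour Agilent arrays, and 7 groups of 3 samples each were compared. Embryonic stem cells were the lines cGR8 (129Sv), RD1 (129X1/SvJ) and E14tg2 (129/Ola), the last on 2 arrays that were averaged. Primary myoblasts of C57BL/6J mice were taken at passage 0 or while proliferating at passages 8 to 10 in growth medium on collagen. Primary myotubes of the same strain were cultured in differentiation medium on Matrigel and taken at day 1, 2 or 4, with the same 3 numbers in their titles as the proliferating myoblasts. Quadriceps muscle came from 1 C57BL/6J sample (replicate 1) and 2 samples of 129Sv/C57BL/6J background (replicates 2 and 3). The samples are labelled male except line E14tg2, whose sex is not stated, and ages are not stated. No transgene, knockout or drug is named for any group. Each stem cell sample is 1 line, so strain and cell type change together between stem cells and myoblasts, and strain changes in part between myotubes and quadriceps.

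Most steps of glycolysis have several enzymes made from different genes, and tissues differ in which of them they use. Adult skeletal muscle is known for the muscle forms of phosphofructokinase, phosphoglycerate mutase and enolase, for the insulin-responsive glucose transporter GLUT4, and for a glycogen phosphorylase whose loss causes McArdle disease. Phosphorylase kinase, an assembly of alpha, beta, gamma and calmodulin subunits, switches phosphorylase on when calcium rises during contraction, and targeting subunits bring protein phosphatase 1 to glycogen to reverse it.

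Levels below are log2 of the processed signal minus the array's 75th percentile, so 0 is a signal at that percentile and each unit a 2-fold step. Levels of different genes come from different probes and are not compared with each other. Testing was limited to genes whose probe stood well above background on all samples of 1 group or both, and a gene was called where limma's adjusted p was under 0.05 and the fold at least 2. Standard errors (SE) come from that fit. The labels do not say which samples came from separate animals, so the p-values cover only how these samples vary. The share of an array's spots that were well above background lay between 39.1% and 60.1%, and the number of arrays limits the precision. The array of proliferating myoblast replicate 1 was dim, with a 75th percentile of 87.7 intensity units against 208 to 765 on the others. Proliferating myoblasts also varied most: the median SD of the 45 genes was 0.705 there and 0.560 in day 4 myotubes, against 0.252 to 0.386 in the other 5 groups.

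The cells carried most markers of their labels. The summed signal of 6 stem cell markers, in units of the 75th percentile, was 724.5 to 843.4 in stem cells and at most 16.9 elsewhere, with Sox2 and Zfp42 above background in no other group. Nanog, another of the 6, went the other way, at -1.51, -2.37 and -2.52 in stem cells, below every other sample, and was called higher in proliferating myoblasts. The 6 myotube markers summed to 535.4 to 1715 in both myoblast groups, against 4.85 to 9.87 in stem cells, so genes of differentiating muscle were already on in the myoblast cultures. They summed to 2711 to 5004 in myotubes. Of 6 myoblast markers 5 were above background in both myoblast groups, Myod1 and Pax7 among them, and Myf5 in none. The same 5 were above background in all myotube groups and quadriceps. The 6 summed to 187.4 to 364.9 in both myoblast groups, 420.5 to 659.9 in myotubes and 51.25 to 75.98 in quadriceps. They thus did not set myoblasts apart from myotubes. All 7 adult muscle markers were above background in quadriceps, at sums of 7637 to 9747 against 1836 to 3541 in day 4 myotubes. Fibroblast markers summed to 33.5 to 141.7 in passage 0 myoblasts, 13.98 to 32.1 in proliferating myoblasts and 1.87 to 18.4 in stem cells, and 4 of 6 were called lower in proliferating than in passage 0 myoblasts. Leukocyte markers summed to 3.88 to 24.8 in passage 0 myoblasts, with 2 of 6 called higher, against 2.49 to 2.98 in stem cells. The part of either in the results was not tested.

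The 7 comparisons share groups with one another, so their values are given side by side and not counted as separate evidence. The genes were chosen with earlier results of these data known, so their shares beside those of all genes are descriptions. In passage 0 myoblasts against stem cells, 43 of the 45 genes were tested, with 11 called higher (25.6%) and 12 called lower (27.9%), against 17.8% and 20.1% of all genes tested. In proliferating myoblasts against stem cells, 10 of 43 were higher (23.3%) and 13 lower (30.2%), against 16.1% and 20.1% of all genes. Of the 13, 6 were called lower where only genes above background in all samples of both groups were tested; the other 7, Fbp1, Fbp2, Pfkfb1, Pgm2, Phkb, Pygl and Slc2a3, had entered the test through the stem cells alone. Proliferating against passage 0 myoblasts gave 1 higher (2.44%), the enolase Eno2, and 0 lower of 41 tested, against 0.673% and 1.03% of all genes. Against stem cells the genes thus moved in both directions, at shares not far above those of all genes.

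Differentiation and muscle looked different. In day 1 myotubes against proliferating myoblasts, 10 of 40 genes were higher (25%) and 1 lower, against 6.86% and 4% of all genes. Day 4 myotubes against proliferating myoblasts had 18 of 40 higher (45%) and 4 lower (10%), against 15.3% and 10.7% of all genes. Day 4 against day 1 myotubes had 11 of 42 higher (26.2%) and 4 lower (9.52%), against 4.81% and 5% of all genes. In quadriceps against day 4 myotubes, 22 of 43 were higher (51.2%) and 9 lower (20.9%), against 15.2% and 16.9% of all genes. Some called genes entered a test through 1 group alone, where they were high. Among the higher calls these were Phkb at day 1, and Phkb, Ppp1r3a and Ppp1r3c in day 4 against proliferating myoblasts. In day 4 against day 1 they were Ppp1r3a and Ppp1r3c, and in quadriceps against day 4 Pfkfb2, Fbp2 and Slc2a3. Pgm2, lower in day 4 against day 1, entered through day 1 alone. The median log2 difference of the members tested was 0.64 in day 4 against proliferating cells and 1.58 in quadriceps against day 4, beside 0.03 and -0.06 over all genes tested.

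Some of these counts rest on single samples. Day 1 against proliferating gave 5 higher without proliferating myoblast replicate 3, 3 higher without day 1 replicate 3, and 0 higher and 0 lower when only those 6 samples entered the fit. Its 1 lower call, Hk2, was lost without proliferating replicate 2 or 3 or day 1 replicate 1 or 2. Day 4 against day 1 gave 7 higher without day 1 replicate 1, 5 without day 1 replicate 2 and 6 without day 4 replicate 1, and 2 lower without any 1 of day 1 replicates 1 and 2 or day 4 replicates 2 and 3. Proliferating against passage 0 gave 7 higher without proliferating replicate 3 and 0 without passage 0 replicate 1 or 2, and 2 lower without proliferating replicate 2 or 3 or 1 lower without replicate 1. The counts against stem cells, of day 4 against proliferating and of quadriceps against day 4 moved by at most 1.5 times when any sample was left out, the largest such move being 15 higher in proliferating myoblasts against stem cells without proliferating replicate 3. In day 4 against proliferating myoblasts, a fit to those 6 samples alone ended the calls of Aldoa, Aldoc, Tpi1, Eno3, Pgm1, Pfkfb1, Pfkl and Pygb, and in quadriceps against day 4 those of Pfkl and Slc2a1. Within the 3 slides, each with 1 sample of each group, every called gene kept its sign except Fbp2 in proliferating myoblasts against stem cells and Pfkl in quadriceps against day 4.

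**Figure D1:**
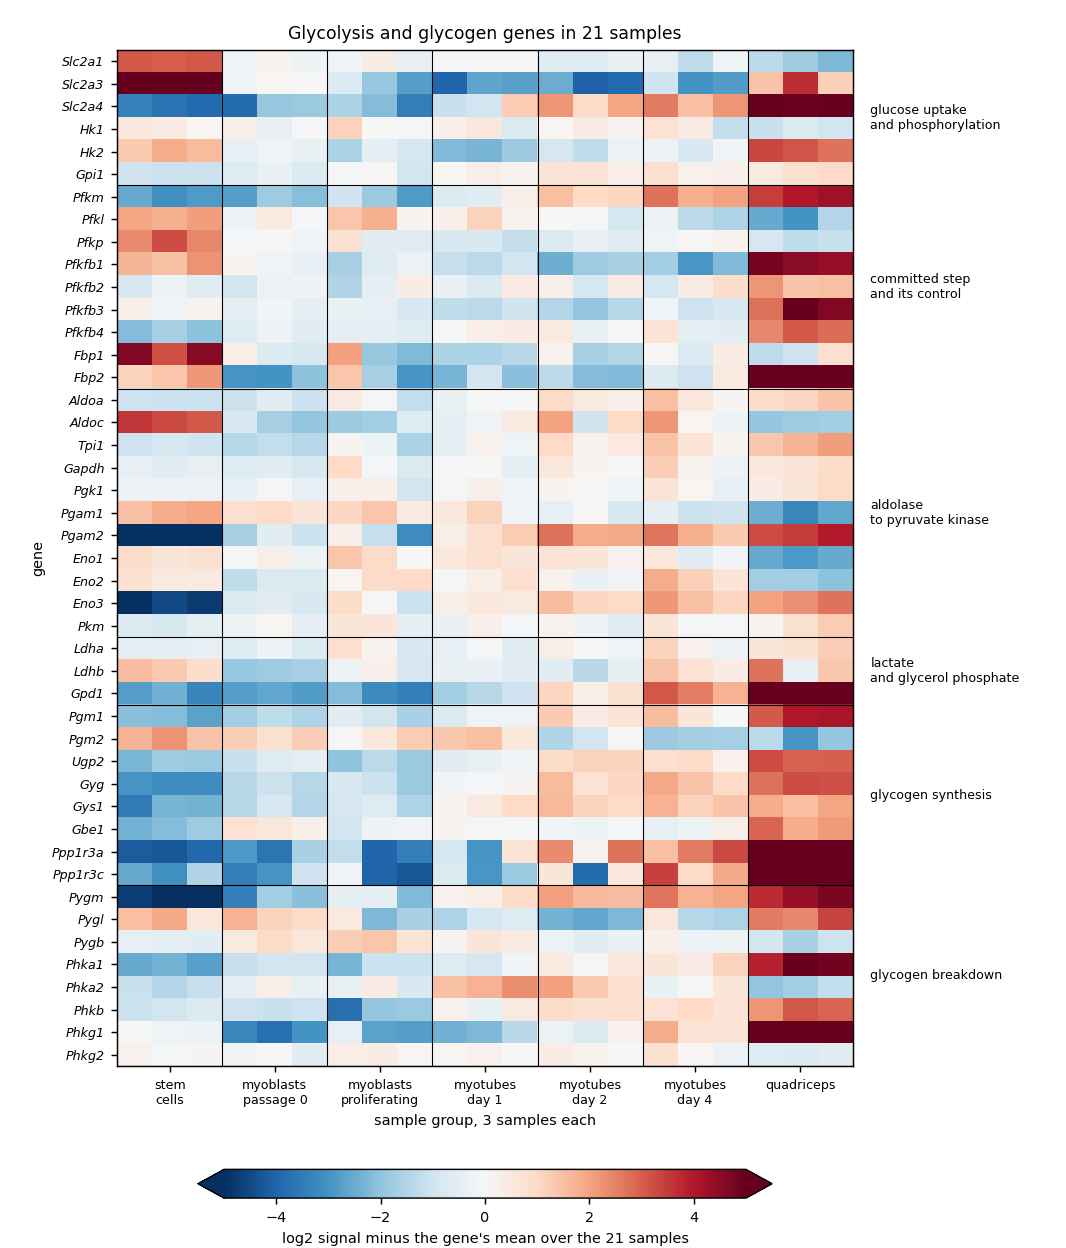
Each row is 1 of the 45 genes in order of its step in the pathway and each column 1 of 21 samples, with colour giving the log2 signal minus that gene's own mean over the 21 samples (red above, blue below, saturated at 5). Slc2a4, Pfkm, Pgam2, Eno3, Pygm and Gpd1 run from blue in stem cells to red in quadriceps, while Pgam1 and Pfkl run the other way and Gapdh, Pgk1 and Pkm stay pale throughout.

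Glucose enters cells through the transporters of the Slc2a family. Slc2a1 encodes GLUT1, the transporter of most growing cells, and Slc2a3 encodes the high-affinity GLUT3. Both were high in stem cells, and Slc2a4, the gene of GLUT4, was highest in muscle. Slc2a3 read -2.30, -2.02 and -2.09 in passage 0 myoblasts and -2.79, -3.998 and -4.89 in proliferating myoblasts, against 5.84, 6.73 and 6.64 in stem cells. It was 372.5-fold lower in passage 0 myoblasts than in stem cells (log2 difference -8.54 ± 0.68 SE, adjusted p = 1.8e-08), the largest fall of any member in that comparison. In proliferating myoblasts it was above background in 1 of 3 samples, and in no myotube sample. Quadriceps had Slc2a3 above background again, at -0.71, 1.56 and -0.92, at least 12.2-fold over day 4 myotubes, where it was measured at -3.12, -5.11 and -4.92 without being above background (adjusted p = 6.2e-05). Slc2a3 entered that test through quadriceps alone, where it was high, so it could only be called higher. In bulk RNA fewer cells of a type and less RNA per cell cannot be told apart. Quadriceps samples also held markers of other cells: 5 of 6 adipocyte markers were above background in all 3 and summed to 76.4 to 669 units, against 0.195 to 0.403 in day 4 myotubes, where Adipoq, Cfd, Lep, Retn and Cidec were above background in no sample. Red blood cell markers summed to 173.2 to 214.8 in quadriceps, against 0.219 to 0.425 in day 4 myotubes, and fibroblast markers to 301.7 to 817.5 against 10.0 to 16.4, with all 6 above background in quadriceps and 3 in day 4 myotubes. Endothelial markers summed to 16.7 to 25.3 in quadriceps against 5.04 to 16.5 in day 4 myotubes, and leukocyte markers to 10.5 to 14.99, with Cd68 in no sample, against 1.80 to 5.65. Their part in the quadriceps results was not tested.

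Slc2a1 was also lower in myoblasts than in stem cells. It had 2.20, 2.55 and 2.18 in passage 0 myoblasts and 2.27, 2.80 and 2.04 in proliferating myoblasts, against 5.51, 5.46 and 5.52 in stem cells, a 9.14-fold difference for passage 0 (log2 difference -3.19 ± 0.30 SE, adjusted p = 1.2e-07). The stem cell lines lay close together and apart from every other sample. Quadriceps, at 1.07, 0.63 and 0.16, was lower again than day 4 myotubes, at 2.02, 1.14 and 2.20, by 2.25-fold (log2 difference -1.17 ± 0.29 SE, adjusted p = 0.0041). That call was lost without day 4 replicate 3 or quadriceps replicate 3, and with the authors' deposited values.

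Slc2a4 went the other way. Its levels were 2.01, 2.18 and 4.39 at day 1, 5.34, 4.09 and 5.11 at day 2 and 5.71, 4.65 and 5.35 at day 4 of differentiation, and 8.12, 8.05 and 8.29 in quadriceps. Proliferating myoblasts had 1.53, 0.96 and -0.34 and stem cells -0.25, -0.56 and -0.74, so the day 1 samples already lay above all proliferating ones, with day 1 replicate 3 far above the other two. The fold was 22.9 for day 4 against proliferating myoblasts (log2 difference 4.52 ± 0.62 SE, adjusted p = 3.1e-05) and 7.54 for quadriceps against day 4 (log2 difference 2.91 ± 0.62 SE, adjusted p = 0.0012). Neither call depended on 1 sample. Isoforms were also compared within the same arrays, for 27 pairs in each comparison, as the change of one gene minus that of another. The change of Slc2a1 minus that of Slc2a4 was -5.11 log2 units in day 4 against proliferating myoblasts and -4.08 in quadriceps against day 4. The groups did not overlap, and an exact two-sided permutation test of 3 against 3 samples gave p = 0.1, the smallest it allows, so no pair could pass 0.05 before or after adjustment.

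Hexokinases trap glucose by phosphorylation. Hk2, the form that muscle regulates with insulin and exercise, had 3.56, 4.10 and 3.84 in stem cells, 1.84, 2.02 and 1.86 in passage 0 myoblasts, 0.65, 1.82 and 1.36 in proliferating myoblasts and 0.05, -0.10 and 0.41 at day 1, its lowest point. It then stood at 1.40, 0.96 and 1.96 at day 2, 1.94, 1.43 and 2.13 at day 4 and 5.57, 5.40 and 4.96 in quadriceps, where all 3 samples exceeded the stem cells. The fold was 11.1 for quadriceps against day 4 (log2 difference 3.48 ± 0.32 SE, adjusted p = 1.7e-07), and 3.28 for day 4 against day 1 (log2 difference 1.71 ± 0.32 SE, adjusted p = 0.0021). The fall at day 1 against proliferating myoblasts was 2.23-fold (log2 difference -1.16 ± 0.32 SE, adjusted p = 0.024) and rested on single samples, as given above.

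Hk1, the broadly expressed hexokinase, was called in none of the comparisons by its brightest probe, but its 3 probes disagreed. The brightest read 6.68, 7.09 and 6.85 in quadriceps, against 8.51, 8.21 and 6.54 in day 4 myotubes, with overlap through day 4 replicate 3, a change of -0.88 log2 units (adjusted p = 0.14). The other two probes changed by -3.61 and -3.16. In passage 0 myoblasts against stem cells the brightest changed by -0.40 and the others by 1.62 and 1.53, so its sign there depends on the probe. With the mean of its probes Hk1 was called in quadriceps against day 4 and in proliferating myoblasts against stem cells. Gpi1, which converts glucose 6-phosphate to fructose 6-phosphate, was called nowhere, and its 3 probes changed alike. It was called in proliferating myoblasts against stem cells with array weights or without proliferating replicate 3.

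Phosphofructokinase makes the committed step of glycolysis and is built from muscle (Pfkm), liver (Pfkl) and platelet (Pfkp) subunits. Pfkm was called higher at day 1, day 4 and in quadriceps, each against the stage compared with it, Pfkl was called lower in passage 0 myoblasts against stem cells, at day 4 and in quadriceps, and Pfkp was called lower in myoblasts against stem cells and in quadriceps. Pfkm had 3.18, 2.64 and 2.85 in stem cells, 2.93, 3.93 and 3.57 in passage 0 and 4.70, 3.84 and 2.88 in proliferating myoblasts. In myotubes it stood at 5.01, 5.14 and 5.95 on day 1, 7.22, 6.70 and 6.76 on day 2 and 8.40, 7.50 and 7.70 on day 4, and in quadriceps at 9.17, 9.71 and 9.95. No myotube group overlapped the myoblasts and each later stage lay above the one before it. Pfkm was 16.6-fold higher in day 4 myotubes than in proliferating myoblasts (log2 difference 4.06 ± 0.41 SE, adjusted p = 1.9e-06) and 3.35-fold higher in quadriceps than at day 4 (log2 difference 1.75 ± 0.41 SE, adjusted p = 0.0026).

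Pfkp dropped between stem cells and myoblasts: it had 0.37, 0.45 and 0.25 in passage 0 myoblasts, against 2.78, 3.69 and 2.81 in stem cells, 6.67-fold lower (log2 difference -2.74 ± 0.33 SE, adjusted p = 2.7e-06). Its second, dimmer probe changed by -0.53 there, against -2.74 for the brightest. In quadriceps, at -0.44, -0.84 and -0.67, against 0.24, 0.49 and 0.65 at day 4, Pfkp was 2.16-fold lower (log2 difference -1.11 ± 0.33 SE, adjusted p = 0.012). That call was lost with the mean of its probes, with the authors' values and under normexp. Pfkl had 1.18, 0.14 and -0.11 in day 4 myotubes, against 2.83, 3.20 and 1.55 in proliferating myoblasts, 4.36-fold lower (log2 difference -2.12 ± 0.47 SE, adjusted p = 0.002) with no overlap. In quadriceps, at -1.07, -1.55 and -0.02, the range overlapped day 4, and the 2.43-fold difference (log2 difference -1.28 ± 0.47 SE, adjusted p = 0.04) was lost without day 4 replicate 1 or 2 or quadriceps replicate 1 or 2, and with normexp background correction or no filter. The change of Pfkm minus that of Pfkl was 6.18 log2 units, or 72.5-fold, in day 4 against proliferating myoblasts (exact two-sided permutation p = 0.1).

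The level of fructose 2,6-bisphosphate, which activates phosphofructokinase, is set by bifunctional enzymes encoded by Pfkfb1 to Pfkfb4. All 4 genes were called higher in quadriceps than in day 4 myotubes. Pfkfb1, known from liver and muscle, gave the largest rise of any member there: 4.51, 4.26 and 4.14 in quadriceps against -1.95, -3.16 and -2.49 in day 4 myotubes, 114.3-fold (log2 difference 6.84 ± 0.36 SE, adjusted p = 4.7e-10). Before that it had declined along the cultures, with 1.43, 1.22 and 1.97 in stem cells, -0.11, -0.43 and -0.68 at passage 0 and -1.91, -0.89 and -0.55 in proliferating cells. It was thus lower in day 4 myotubes than in proliferating myoblasts by 2.67-fold (log2 difference -1.41 ± 0.36 SE, adjusted p = 0.0058), a call lost with quantile normalization, with the authors' values and where both groups had to be above background.

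Pfkfb3, the inducible form with high kinase activity, stayed between -1.55 and 0.66 in all 18 cultured samples. In quadriceps it had 3.17, 5.87 and 5.03, with replicate 1 well below the other two and yet above every culture, and was 30.9-fold higher than at day 4 (log2 difference 4.95 ± 0.46 SE, adjusted p = 1.8e-07). Pfkfb4 had 4.07, 4.73 and 4.45 in quadriceps, against 2.35, 1.21 and 1.08 in day 4 myotubes, 7.33-fold higher (log2 difference 2.87 ± 0.32 SE, adjusted p = 1.4e-06). Pfkfb2, the heart form, was 2.99-fold higher (log2 difference 1.58 ± 0.50 SE, adjusted p = 0.018), from -0.23, -1.001 and -0.93 in quadriceps against -3.32, -2.04 and -1.55 at day 4. That call was lost without day 4 replicate 1 or quadriceps replicate 1, and under normexp, quantile normalization or the authors' values. Pfkfb2 was above background in 2 of 3 day 4 samples, so it entered the test through quadriceps alone, where it was high. The groups did not overlap for any of the 4 genes, and the change of Pfkfb1 exceeded that of Pfkfb4 by 3.96 log2 units (exact two-sided permutation p = 0.1).

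Fructose bisphosphatases run the committed step backwards. Fbp2 is the muscle form and Fbp1 the liver form, and both were measured in stem cells: Fbp1 at 0.09, -1.29 and 0.02 and Fbp2 at -2.79, -2.54 and -1.76. In passage 0 myoblasts Fbp2 was above background in no sample and at least 5.60-fold lower (adjusted p = 0.00026), and Fbp1 was above background in 1 sample and measured 22.9-fold lower (log2 difference -4.52 ± 0.85 SE, adjusted p = 0.00031). Quadriceps had Fbp2 alone, at 1.51, 2.23 and 3.23, against -4.63, -4.98 and -3.43 in day 4 myotubes, of which 1 sample was above background. The measured difference was 101.9-fold (log2 difference 6.67 ± 0.78 SE, adjusted p = 2.9e-06). Both genes entered these tests only through the group where they were high, and neither was tested where both groups had to be above background, so the sizes of these differences rest on signals mostly not above background on 1 side. Fbp1 was above background in no quadriceps sample.

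**Figure D2:**
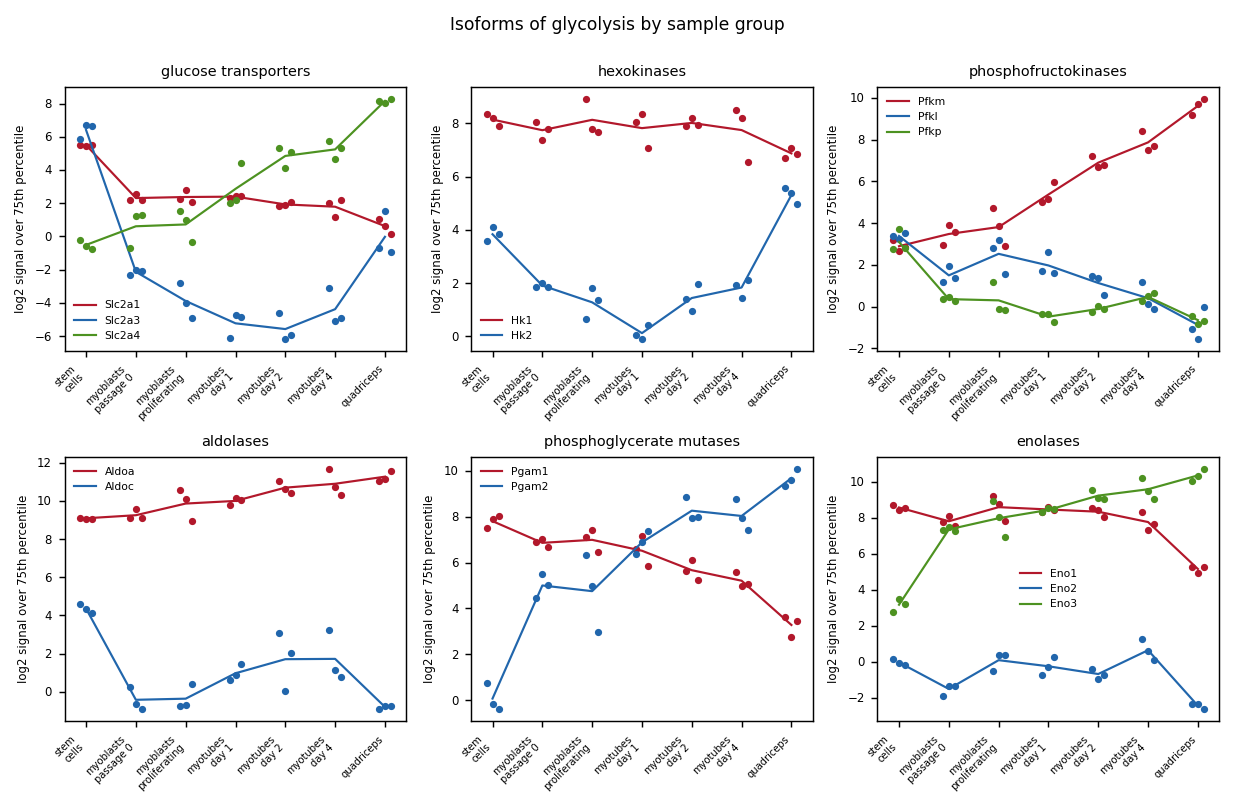
Points are the 3 samples of each group and lines join group means, with log2 signal over the array's 75th percentile on the vertical axis and the 7 groups in lineage order on the horizontal axis; heights of different genes come from different probes and only the slopes are comparable. Slc2a4, Pfkm, Pgam2 and Eno3 climb towards quadriceps, where Pgam1, Eno1 and Pfkl are at their lowest, and Hk2 dips to its minimum at day 1.

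Gapdh, Pgk1 and Pkm, which encode glyceraldehyde 3-phosphate dehydrogenase, phosphoglycerate kinase and muscle-type pyruvate kinase, were called in none of the 7 comparisons. Over those comparisons the log2 difference of Gapdh ran from -0.22 to 0.71, that of Pgk1 from -0.03 to 0.54 and that of Pkm from -0.30 to 0.90. A call missed does not show that they were equal: the 8 Gapdh probes changed by 0.30 to 0.97 in quadriceps against day 4, all upward. The brightest Gapdh probe is placed by the array on chromosome 7 and the only Pgk1 probe on chromosome 3, whereas the genes lie on chromosomes 6 and X, so the values of both are uncertain. Pkm has 1 probe, and its splice forms were not told apart here. It was called in proliferating myoblasts against stem cells with array weights or without proliferating replicate 3.

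Aldoa, the muscle aldolase, and Tpi1, triose phosphate isomerase, rose modestly in culture. Aldoa had 11.67, 10.72 and 10.29 in day 4 myotubes, against 10.58, 10.08 and 8.93 in proliferating myoblasts, overlapping, with a fold of 2.05 (log2 difference 1.04 ± 0.38 SE, adjusted p = 0.045). Tpi1 had a fold of 2.48 (log2 difference 1.31 ± 0.39 SE, adjusted p = 0.017), also with overlap. The Aldoa call was lost without proliferating replicate 2 or 3 or day 4 replicate 1 or 2, and with quantile normalization, the authors' values, no filter or array weights. That of Tpi1 was lost without proliferating replicate 3 or day 4 replicate 1, and with array weights. Aldoc, the brain aldolase, was high in stem cells: it had 0.27, -0.62 and -0.91 in passage 0 myoblasts, against 4.61, 4.34 and 4.11 in stem cells, 27.4-fold lower (log2 difference -4.78 ± 0.65 SE, adjusted p = 1.1e-05). It came back in part in myotubes, with 3.24, 1.14 and 0.79 at day 4 against -0.77, -0.72 and 0.40 in proliferating myoblasts, 4.24-fold higher (log2 difference 2.08 ± 0.65 SE, adjusted p = 0.02), though not without proliferating replicate 1 or 2 or day 4 replicate 1. Quadriceps had -0.89, -0.76 and -0.73, 5.72-fold below day 4 (log2 difference -2.52 ± 0.65 SE, adjusted p = 0.0051).

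The phosphoglycerate mutase genes Pgam1 and Pgam2 changed in opposite directions between the groups compared, and both were above background in every sample. Pgam1 encodes the widespread brain form and Pgam2 the muscle form. Pgam1 had 7.50, 7.90 and 8.03 in stem cells, 6.88, 7.02 and 6.69 in passage 0 myoblasts and 7.10, 7.44 and 6.44 in proliferating myoblasts. It then stood at 6.58, 7.15 and 5.83 on day 1, 5.64, 6.11 and 5.26 on day 2 and 5.59, 4.98 and 5.06 on day 4, and at 3.63, 2.78 and 3.44 in quadriceps, below every culture. Pgam2 had 0.76, -0.16 and -0.39 in stem cells, 4.45, 5.52 and 5.04 at passage 0 and 6.34, 4.96 and 2.97 in proliferating myoblasts, with replicate 3 well below the other two. In myotubes Pgam2 stood at 6.38, 6.90 and 7.38 on day 1, 8.86, 7.96 and 7.98 on day 2 and 8.77, 7.93 and 7.41 on day 4, and in quadriceps at 9.36, 9.61 and 10.08. All passage 0 samples lay far above all stem cells for Pgam2, and all quadriceps samples above all cultures.

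Pgam2 was 30.5-fold higher in passage 0 myoblasts than in stem cells (log2 difference 4.93 ± 0.62 SE, adjusted p = 4.2e-06), the largest rise of any member there, and 9.71-fold higher in day 4 myotubes than in proliferating myoblasts (log2 difference 3.28 ± 0.62 SE, adjusted p = 0.00053). Its further 3.14-fold rise in quadriceps (log2 difference 1.65 ± 0.62 SE, adjusted p = 0.044) was lost without day 4 replicate 2 or 3 or any 1 quadriceps sample, and with quantile normalization, the authors' values, no filter or the title number as a random block. Pgam1 was 3.44-fold lower at day 4 than in proliferating myoblasts (log2 difference -1.78 ± 0.35 SE, adjusted p = 0.00085) and 3.81-fold lower in quadriceps than at day 4 (log2 difference -1.93 ± 0.35 SE, adjusted p = 3e-04). The change of Pgam1 minus that of Pgam2 was -5.88 log2 units in passage 0 myoblasts against stem cells, -5.06 in day 4 against proliferating myoblasts and -3.58 in quadriceps against day 4, each without overlap and each at the smallest exact p of 0.1.

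Since Pgam1 and Pgam2 changed in opposite directions, the sequences before their starts are shown, from RefSeq's promoter table for build GRCm38.p6, as the 250 bases before the annotated start on the gene's own strand, 5′ to 3′. Capitals mark the letters CAGCTG, a core that myogenic factors of the MyoD family are known to bind, and matches on either strand to the MEF2 consensus, another muscle factor's site. The first window is Pgam2, chr11:5803797-5804046, minus strand, and the second Pgam1, chr19:41911621-41911870, plus strand.
Pgam2: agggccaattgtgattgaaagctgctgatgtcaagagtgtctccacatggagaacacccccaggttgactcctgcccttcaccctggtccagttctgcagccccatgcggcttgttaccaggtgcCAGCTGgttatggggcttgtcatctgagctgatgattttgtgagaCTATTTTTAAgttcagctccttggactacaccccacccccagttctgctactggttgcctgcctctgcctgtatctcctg
Pgam1: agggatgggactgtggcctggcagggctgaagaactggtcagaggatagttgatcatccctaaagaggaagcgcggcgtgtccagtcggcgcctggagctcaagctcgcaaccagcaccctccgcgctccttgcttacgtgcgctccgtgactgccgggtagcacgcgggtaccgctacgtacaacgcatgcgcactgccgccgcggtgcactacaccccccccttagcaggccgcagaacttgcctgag
In Pgam2 the CAGCTG begins 125 bases and the MEF2 match 80 bases before the start, and the Pgam1 window held neither. RefSeq's table had 60 such windows for 42 of the 45 genes, some with several starts. CAGCTG, searched on both strands (it reads the same on each), was in 12 of the 60 (20%), against 13% of all 32851 windows, and the MEF2 match in 3 (5%), against 2.9%. A match is a description of these letters and not a site shown to be bound.

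Enolase also has several genes. Eno1 is the widespread form, Eno2 the neuronal form and Eno3 the muscle form. Eno3 had 7.31, 7.50 and 7.24 in passage 0 myoblasts, against 2.77, 3.51 and 3.23 in stem cells, 18.2-fold higher (log2 difference 4.18 ± 0.40 SE, adjusted p = 1.7e-07). It had 10.19, 9.49 and 9.07 in day 4 myotubes, against 8.95, 8.05 and 6.93 in proliferating myoblasts, 3.05-fold higher (log2 difference 1.61 ± 0.40 SE, adjusted p = 0.0045). In quadriceps it had 10.03, 10.32 and 10.71, a difference from day 4 of 0.77 log2 units that was not called (adjusted p = 0.14), with overlapping ranges.

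Eno1 stayed between 7.30 and 9.20 in every cultured sample and was called lower in the quadriceps comparison alone. Quadriceps had 5.25, 4.93 and 5.29, against 8.33, 7.30 and 7.66 in day 4 myotubes, 6.09-fold lower (log2 difference -2.61 ± 0.32 SE, adjusted p = 5.4e-06). Eno2 had -2.34, -2.36 and -2.63 in quadriceps, against 1.25, 0.59 and 0.09 at day 4, 8.49-fold lower (log2 difference -3.09 ± 0.33 SE, adjusted p = 9.9e-07), the largest fall of any member in that comparison. It was also the only member called between proliferating and passage 0 myoblasts, at -0.49, 0.38 and 0.38 in proliferating against -1.88, -1.32 and -1.32 in passage 0 cells, 3.03-fold higher (log2 difference 1.60 ± 0.33 SE, adjusted p = 0.018). That call was lost without passage 0 replicate 1 or 2. The change of Eno1 minus that of Eno3 was -4.95 log2 units in passage 0 myoblasts against stem cells and -3.38 in quadriceps against day 4, each without overlap (exact two-sided permutation p = 0.1).

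At the end of glycolysis, lactate dehydrogenase interconverts pyruvate and lactate. Ldha, the muscle subunit, was called nowhere by its brightest probe, whose log2 differences ran from -0.40 to 0.69. In quadriceps against day 4 that probe changed by 0.52, but the other Ldha probes changed by 1.1 and 1.34. With the mean of its probes Ldha was not called there. Ldhb, the heart subunit, had 3.23, 3.32 and 3.45 in passage 0 myoblasts, against 6.64, 6.43 and 5.98 in stem cells, 8.10-fold lower (log2 difference -3.02 ± 0.54 SE, adjusted p = 0.00018). Its 3 quadriceps samples spread widely, at 7.81, 4.69 and 6.45, with the C57BL/6J sample highest, against 6.54, 5.83 and 5.49 in day 4 myotubes. Slow fibre markers spread widely over the same samples: their sums ran from 41.2 to 2114 in quadriceps, and Myh7, the slow myosin, read 8.92, 6.10 and -3.09 there. Their part in the Ldhb values was not tested. The Ldhb ranges of quadriceps and day 4 overlapped, and the difference was not called (log2 difference 0.36, adjusted p = 0.64). Without quadriceps replicate 2 it was called.

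Gpd1 turns dihydroxyacetone phosphate into glycerol 3-phosphate and carries reducing power towards mitochondria. Gpd1 had -0.64, -1.66 and -1.88 in proliferating myoblasts, -0.17, 0.14 and 0.49 at day 1, 2.59, 1.86 and 2.31 at day 2, 4.65, 4.07 and 3.28 at day 4 and 7.68, 8.32 and 8.50 in quadriceps. Each stage lay above the one before it, and the stem cells, at -1.22, -0.88 and -1.75, did not stand apart from the myoblasts. The fold was 42.1 for day 4 against proliferating myoblasts (log2 difference 5.39 ± 0.38 SE, adjusted p = 1.1e-07), the largest rise of a member measured in both groups, and 17.9 for quadriceps against day 4 (log2 difference 4.17 ± 0.38 SE, adjusted p = 1.6e-07). Adipocytes also express Gpd1. Their markers were high in quadriceps and near background in the myotubes, as given above, and their part in the quadriceps value was not tested.

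**Figure D3:**
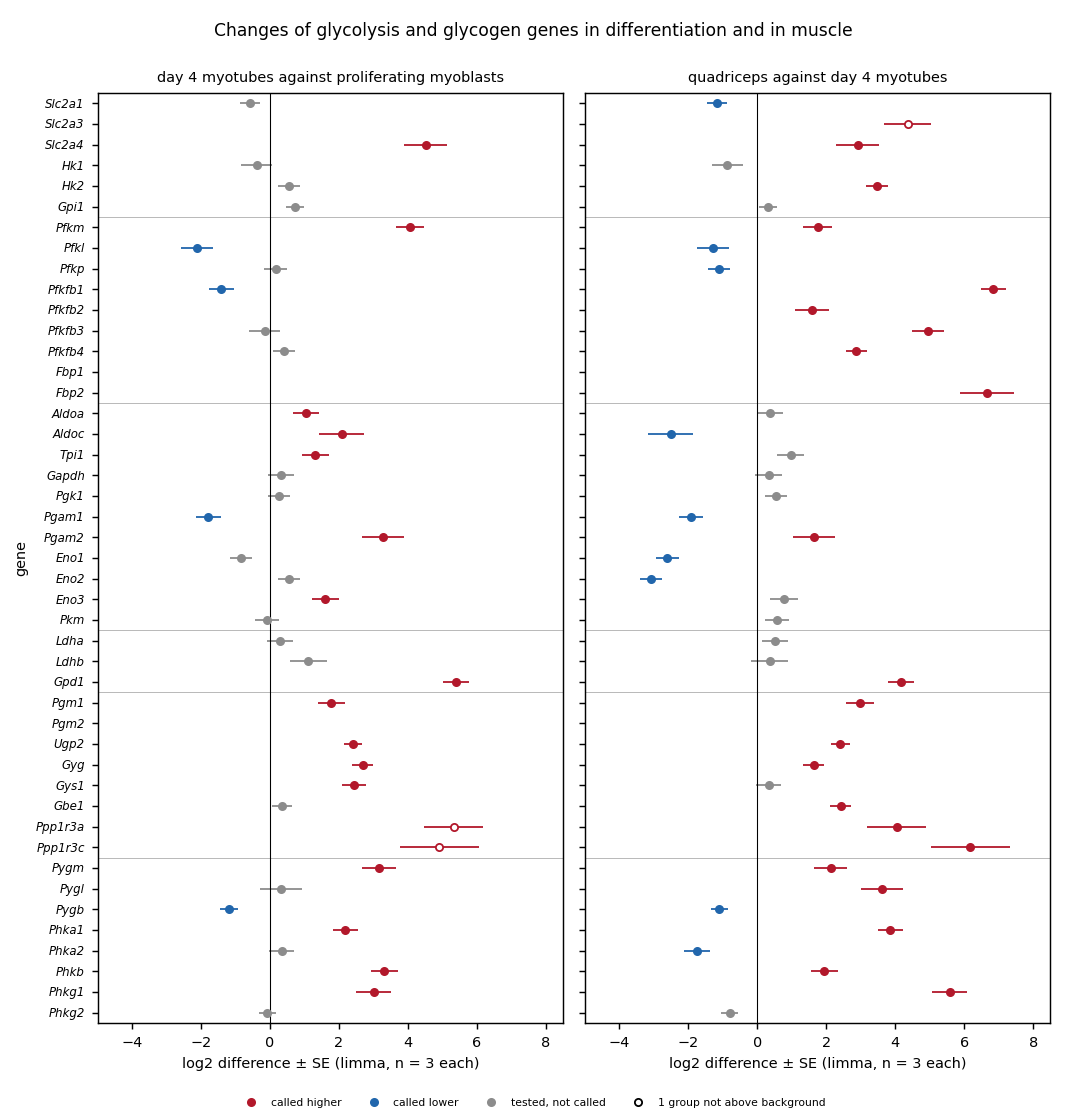
Each point is the log2 difference of 1 gene with its standard error, with the genes in pathway order from top to bottom, for day 4 myotubes against proliferating myoblasts (left) and quadriceps against day 4 myotubes (right); red was called higher, blue called lower, grey tested and not called, and an open point means that 1 of the groups had no sample above background. Genes with no point were not tested; the tested glycogen genes in the lower part lie to the right of 0 in both panels except Pygb, Phka2 and Phkg2, while Gapdh, Pgk1, Pkm and Ldha were called in neither.

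Glycogen synthesis starts from glucose 6-phosphate, which phosphoglucomutase turns into glucose 1-phosphate. Of the 8 genes of this group 7 were tested in day 4 against proliferating myoblasts and 6 were higher and 0 lower, against 15.3% and 10.7% of all genes. Of the 6, Ppp1r3a and Ppp1r3c entered the test through day 4 alone, where they were high, so they could only be called higher. The counts were the same in quadriceps against day 4, with Gbe1 called in place of Gys1, against 15.2% and 16.9% of all genes. Pgm1 encodes the main muscle phosphoglucomutase. It had 8.74, 9.66 and 9.74 in quadriceps, against 7.23, 6.28 and 5.70 in day 4 myotubes, 7.86-fold higher (log2 difference 2.97 ± 0.40 SE, adjusted p = 1.2e-05), and was 3.44-fold higher at day 4 than in proliferating myoblasts (log2 difference 1.78 ± 0.39 SE, adjusted p = 0.0021). Pgm2, which acts mostly on pentose phosphates, went down: it had -1.54, -1.39 and -2.34 at day 1 and was above background in no sample at day 4, at least 3.67-fold lower (adjusted p = 0.00051), and in none of quadriceps. Pgm2 entered that test through day 1 alone, so it could only be called lower. The array's own names for these 2 genes are swapped relative to current usage, and they are named here by accession.

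Ugp2 makes UDP-glucose, Gyg primes the granule, Gys1 is muscle glycogen synthase and Gbe1 the branching enzyme. Gys1 and Gyg were both called higher at day 1 against proliferating myoblasts, though neither without day 1 replicate 3 and Gyg also not without proliferating replicate 3. Gyg was called higher again at day 4 against day 1. Gys1 had 4.92, 5.26 and 5.79 at day 1 and 6.56, 5.94 and 6.22 at day 4, against 3.97, 4.16 and 3.25 in proliferating myoblasts, and was 5.43-fold higher at day 4 (log2 difference 2.44 ± 0.35 SE, adjusted p = 5e-05). In quadriceps, at 6.66, 6.29 and 6.76, it was not called against day 4 (log2 difference 0.33, adjusted p = 0.51). Gyg was 6.46-fold higher at day 4 than in proliferating myoblasts (log2 difference 2.69 ± 0.30 SE, adjusted p = 5e-06) and 3.10-fold higher in quadriceps than at day 4 (log2 difference 1.63 ± 0.30 SE, adjusted p = 0.00035). Ugp2 had folds of 5.29 and 5.32 in the same comparisons (adjusted p = 3.5e-06 and 1.3e-06).

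Gbe1 did not follow them in culture. It was 6.12-fold higher in passage 0 myoblasts than in stem cells (log2 difference 2.61 ± 0.30 SE, adjusted p = 1.7e-06), at 2.50, 2.35 and 2.05 in passage 0 myoblasts against -0.56, -0.38 and 0.01 in stem cells. In day 4 myotubes, at 1.37, 1.55 and 2.09, it overlapped proliferating myoblasts, at 0.84, 1.52 and 1.64, and was not called (adjusted p = 0.44). Quadriceps, at 4.71, 3.65 and 3.92, was 5.35-fold above day 4 (log2 difference 2.42 ± 0.30 SE, adjusted p = 4.8e-06), with the C57BL/6J sample highest.

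The glycogen targeting subunits of protein phosphatase 1 were above background in all samples at day 4 and in quadriceps, and in at most 1 of 3 samples in each of the stem cell and myoblast groups. Ppp1r3a, the striated muscle subunit, was above background in 0 stem cell samples, 1 passage 0 sample, 0 proliferating samples and 2 day 1 samples. It had -0.14, -2.28 and 0.24 at day 2, -0.98, 0.09 and 0.79 at day 4 and 3.64, 4.47 and 3.91 in quadriceps. Day 4 exceeded proliferating myoblasts by at least 12.7-fold (adjusted p = 0.00013), and quadriceps exceeded day 4 by 16.4-fold (log2 difference 4.04 ± 0.86 SE, adjusted p = 0.0011). Ppp1r3c, the subunit PTG, had 1.11, -1.32 and -0.43 at day 4, at least 11.2-fold over proliferating myoblasts (adjusted p = 0.0031). In quadriceps it had 5.49, 6.23 and 6.19, 72.6-fold above day 4 (log2 difference 6.18 ± 1.15 SE, adjusted p = 0.00034).

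Breakdown of glycogen begins with phosphorylase, encoded by Pygm in muscle, Pygl in liver and Pygb in brain. Pygm had 0.07, -0.92 and -0.41 in stem cells, 1.36, 3.05 and 2.68 at passage 0 and 4.30, 4.33 and 2.57 in proliferating myoblasts, 4.97, 5.11 and 5.74 at day 1, 6.81, 6.40 and 6.33 at day 2, 7.46, 6.50 and 6.75 at day 4 and 8.48, 9.12 and 9.48 in quadriceps. Every muscle-lineage sample lay above every stem cell sample. It was 6.88-fold higher in passage 0 myoblasts than in stem cells (log2 difference 2.78 ± 0.49 SE, adjusted p = 0.00017), 9.01-fold higher at day 4 than in proliferating myoblasts (log2 difference 3.17 ± 0.49 SE, adjusted p = 8.8e-05) and 4.35-fold higher in quadriceps than at day 4 (log2 difference 2.12 ± 0.49 SE, adjusted p = 0.0022). Day 4 against day 1 was 3.10-fold (log2 difference 1.63 ± 0.49 SE, adjusted p = 0.038), a call lost with the replicate block (adjusted p = 0.051) and without day 1 replicate 1 or 2 or any 1 day 4 sample. Its call at day 1 against proliferating myoblasts was lost with that block too (adjusted p = 0.061). That call was also lost without proliferating replicate 3 or any 1 day 1 sample, and with array weights. Both calls were lost with no filter and in a fit to the 2 groups only. Neither was lost with the title number as a random block.

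Pygb moved against Pygm. It had 0.48, -0.07 and -0.01 at day 4, against 1.46, 1.61 and 0.89 in proliferating myoblasts, 2.28-fold lower (log2 difference -1.19 ± 0.26 SE, adjusted p = 0.0018), and -0.71, -1.39 and -0.80 in quadriceps, 2.14-fold lower than at day 4 (log2 difference -1.10 ± 0.26 SE, adjusted p = 0.0025). The second call was lost without day 4 replicate 1 or quadriceps replicate 2 and with the authors' values, and both under normexp background correction. Pygl was near the floor in myotubes and had 0.40, 0.21 and 1.18 in quadriceps, against -1.66, -3.63 and -3.77 at day 4, 12.2-fold higher (log2 difference 3.61 ± 0.61 SE, adjusted p = 0.00014). Adipocyte and leukocyte markers were also higher in quadriceps, as given above, and their part was not tested. The change of Pygm minus that of Pygb was 4.36 log2 units in day 4 against proliferating myoblasts and 3.22 in quadriceps against day 4, each without overlap (exact two-sided permutation p = 0.1).

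The windows of Pygm (chr19:6384158-6384407, plus strand) and Ppp1r3a (chr6:14755275-14755524, minus strand) are shown for the 2 genes of this pathway whose windows held 2 motif matches each and that rose together with Pgam2, with capitals as before.
Pygm: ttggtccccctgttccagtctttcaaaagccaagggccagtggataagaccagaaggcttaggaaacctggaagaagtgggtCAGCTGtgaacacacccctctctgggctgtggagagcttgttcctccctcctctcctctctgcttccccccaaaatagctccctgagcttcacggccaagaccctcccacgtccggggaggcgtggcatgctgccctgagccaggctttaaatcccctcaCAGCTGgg
Ppp1r3a: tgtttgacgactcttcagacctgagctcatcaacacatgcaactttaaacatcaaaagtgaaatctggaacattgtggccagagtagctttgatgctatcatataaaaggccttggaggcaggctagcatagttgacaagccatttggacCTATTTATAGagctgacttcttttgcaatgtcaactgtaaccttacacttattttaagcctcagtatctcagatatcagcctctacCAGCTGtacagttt
Pygm held CAGCTG at 168 and 8 bases before its start. Ppp1r3a held it at 14 bases and the MEF2 match at 100. Eno3, also higher in day 4 than in proliferating cells, held neither in its window. Pfkm, Gyg, Pgm1, Phkb and Phkg1, higher at day 4 and again in quadriceps, also held neither. Phka1, Ugp2 and Ppp1r3c, higher in the same 2 comparisons, held CAGCTG. So did Gpi1 and Pkm, called in no comparison, Gys1, higher at day 4, and Fbp2 and Pfkfb2, higher in quadriceps. Pfkfb1, lower at day 4 and higher in quadriceps, held both motifs in separate windows. RefSeq gave no window for Slc2a4 and Gpd1, which were higher in both comparisons. A link of motifs to these changes was not tested.

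The muscle alpha and gamma subunits of phosphorylase kinase were higher in quadriceps than at day 4, and the liver alpha subunit was lower. Phka1 and Phkg1 encode the muscle alpha and gamma subunits, Phka2 and Phkg2 the liver ones, and Phkb the shared beta subunit. Phka1 had 6.37, 7.54 and 7.37 in quadriceps, against 3.13, 2.93 and 3.65 in day 4 myotubes, 14.5-fold higher (log2 difference 3.85 ± 0.36 SE, adjusted p = 2.2e-07), and was 4.56-fold higher at day 4 than in proliferating myoblasts (log2 difference 2.19 ± 0.36 SE, adjusted p = 0.00016). Phkg1 had 5.43, 6.23 and 6.45 in quadriceps, against 1.23, 0.06 and 0.09 at day 4, 47.7-fold higher (log2 difference 5.58 ± 0.52 SE, adjusted p = 2e-07). Its levels in culture were lowest at passage 0, with -3.89, -4.38 and -3.62, against -0.63, -0.83 and -0.85 in stem cells, 9.14-fold lower (log2 difference -3.19 ± 0.52 SE, adjusted p = 7.4e-05).

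Phka2 peaked on the way. It had 2.96, 3.70 and 2.56 in proliferating myoblasts, 4.78, 5.08 and 5.63 at day 1, 5.36, 4.62 and 4.15 at day 2, 3.01, 3.32 and 3.91 at day 4 and 1.35, 1.57 and 2.10 in quadriceps. All day 1 samples lay above all proliferating ones and all day 4 ones. The rise at day 1 was 4.25-fold (log2 difference 2.09 ± 0.37 SE, adjusted p = 0.0012), the fall at day 4 3.36-fold against day 1 (log2 difference -1.75 ± 0.37 SE, adjusted p = 0.0052) and that in quadriceps 3.35-fold against day 4 (log2 difference -1.74 ± 0.37 SE, adjusted p = 0.0011). The change of Phka1 minus that of Phka2 was 5.60 log2 units, or 48.4-fold, in quadriceps against day 4 (exact two-sided permutation p = 0.1). The dimmer second Phka2 probe changed in the same direction there, by -0.99 against -1.74.

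Phkb rose with the muscle subunits. It had 0.13, -0.43 and 0.35 at day 1 and 0.64, 0.91 and 0.58 at day 4, against -3.85, -2.02 and -1.94 in proliferating myoblasts, of which 2 samples were above background, a fold of 9.94 at day 4 (log2 difference 3.31 ± 0.39 SE, adjusted p = 7.6e-06). The second Phkb probe changed by 1.38 there, against 3.31 for the brightest, while in quadriceps against day 4 the probes gave 2.07 and 1.94. Phkg2 was called nowhere. Its levels ran from 2.24 to 3.70 over all samples, and all quadriceps samples lay below all day 4 samples, with a log2 difference of -0.81 (adjusted p = 0.017), short of a 2-fold difference. It was called when day 4 replicate 3 was left out.

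**Figure D4:**
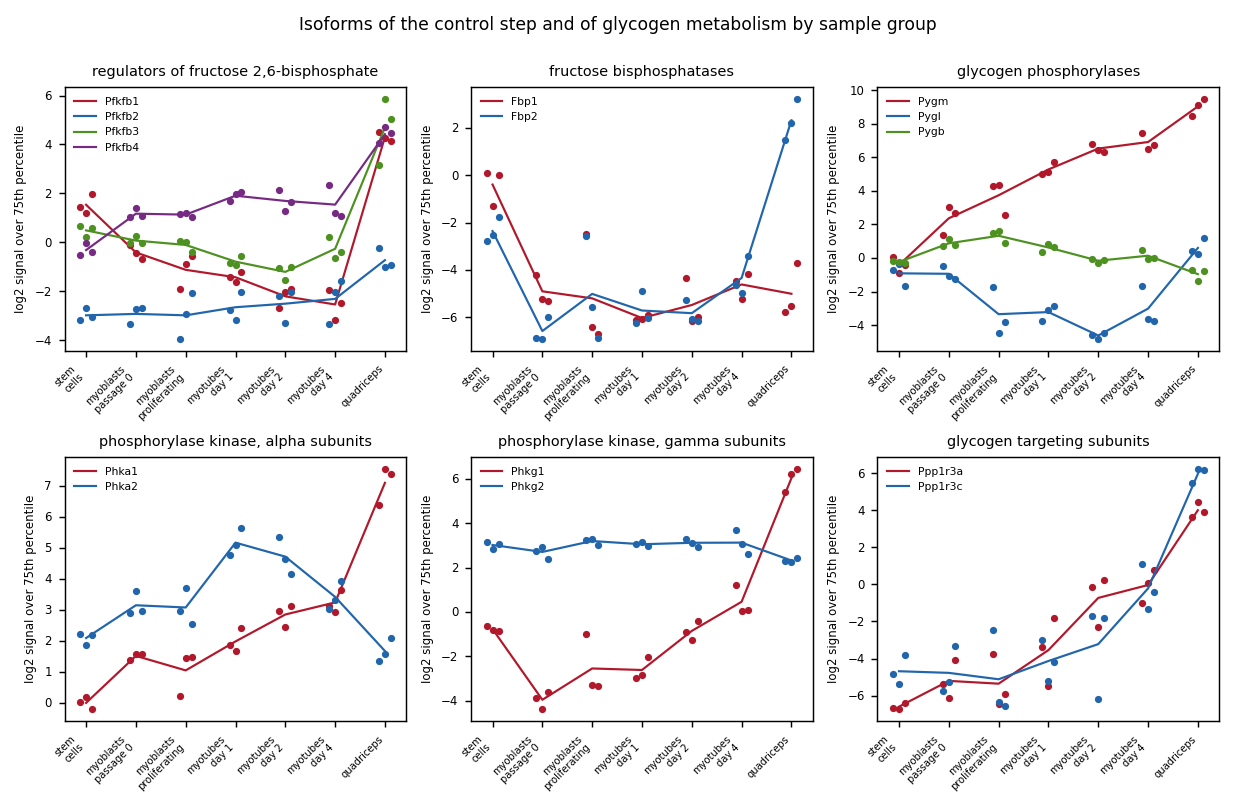
Points are the 3 samples of each group and lines join group means, with log2 signal over the array's 75th percentile on the vertical axis and the 7 groups in lineage order on the horizontal axis; heights of different genes come from different probes and only the slopes are comparable. Pfkfb1, Fbp2, Phkg1, Ppp1r3a and Ppp1r3c are at their highest in quadriceps, Pygm climbs throughout, and Phka2 peaks at day 1.

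Across the 7 comparisons 19 of the 45 genes were called only higher, 8 only lower, 11 in both directions and 7 in none (42.2%, 17.8%, 24.4% and 15.6%). Of all genes tested at least once, 21.3% were called only higher, 24.8% only lower, 15.8% in both directions and 38.1% in none. The 7 were Hk1, Gpi1, Gapdh, Pgk1, Pkm, Ldha and Phkg2. Of the 40 tested at both steps, 13 genes (32.5%) were higher in day 4 myotubes than in proliferating myoblasts and higher again in quadriceps than in day 4 myotubes, against 3.24% of all genes tested at both: Slc2a4, Pfkm, Pgam2, Gpd1, Pgm1, Ugp2, Gyg, Ppp1r3a, Ppp1r3c, Pygm, Phka1, Phkb and Phkg1. Of these, 9 belong to glycogen metabolism, and Ppp1r3a, Ppp1r3c and Phkb were not above background in all proliferating samples. Another 3 (7.5%), Pfkl, Pgam1 and Pygb, were lower at both steps, against 2.97% of all genes. These shares describe a set chosen with earlier results of these data known. The genes Aldoa, Tpi1, Eno3 and Gys1 were higher at day 4 and not called between quadriceps and day 4. Hk2, Pfkfb2, Pfkfb3, Pfkfb4, Fbp2, Pygl, Gbe1 and Slc2a3 were called higher in quadriceps and were not called or not tested at day 4. Pfkfb1 was lower at day 4 and higher in quadriceps, and Aldoc was higher at day 4 and lower in quadriceps. By step of the pathway, beside 15.2% higher and 16.9% lower over all genes, quadriceps against day 4 had 3 higher and 1 lower of 6 tested in uptake and phosphorylation, and 6 higher and 2 lower of 8 at the committed step. From aldolase to pyruvate kinase it had 1 higher and 4 lower of 11, and in lactate and glycerol phosphate metabolism 1 higher and 0 lower of 3. Glycogen synthesis had 6 higher and 0 lower of 7, and glycogen breakdown 5 higher and 2 lower of 8. Among these higher calls, Slc2a3 in uptake and Pfkfb2 and Fbp2 at the committed step entered the test through quadriceps alone, where they were high.

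A list of 36 other genes of the pathway was on the array. In day 4 against proliferating myoblasts 10 of 29 tested were higher and 1 lower, against 15.3% and 10.7% of all genes. In quadriceps against day 4, 12 of 29 were higher and 2 lower, against 15.2% and 16.9%. Pdk4, a kinase that shuts pyruvate dehydrogenase and so the entry of pyruvate into mitochondria, was 12.8-fold higher at day 4 than at day 1 (log2 difference 3.67 ± 0.39 SE, adjusted p = 4.7e-05). Slc16a3, the lactate exporter MCT4, was 11.3-fold higher in quadriceps than at day 4 (log2 difference 3.50 ± 0.71 SE, adjusted p = 0.00077), and Epm2a, the glycogen phosphatase laforin, 13.6-fold (adjusted p = 1.7e-05). Epm2a had low signal at day 4, at -4.61, -4.25 and -4.24, so the size of its fold is uncertain. Its replicate 1 value lay near that of Myf5, -4.66, which was above background in no sample. In passage 0 myoblasts against stem cells 8 of 31 were higher and 7 lower, near the 17.8% and 20.1% of all genes, with Stbd1, a glycogen-binding protein, 46.5-fold higher (adjusted p = 3.5e-08).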

How the data were processed

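RNA of mouse stem cells, myoblasts, myotubes and quadriceps had been hybridised with 1 dye (Cy3) to Agilent 60-mer arrays and read with Feature Extraction 10.7.3.1, per the file headers. The deposited intensity values are the authors' scanner output, with background subtracted and trends removed within each array and no normalization between arrays, per the file headers. The authors' deposited log2 values, whose method is not given in the sources used here, were an alternative; each array's column has a median of 6.72. The deposited flags mark spots above background, saturated or outlying, as other values.

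Processed intensity was divided by each array's 75th percentile and taken to log2, after control and outlier spots were left out. The brightest probe stood for a gene. limma 3.58.1 (R 4.3.3) was fitted to 7 groups of 3 samples, with 14 residual degrees of freedom, and Benjamini-Hochberg adjustment ran over all genes tested in a comparison. Where a group had no sample above background, a bound replaced the fold of a member. The fit was tested on simulated data. Proliferating myoblasts and myotubes share numbers in their titles, whose meaning the labels do not give. Deviations of same-numbered day 4 and day 1 samples correlated at r = 0.138, 0.397 and 0.661, but not every sample matched its own number best. Day 1 and proliferating samples gave r = 0.003, -0.2 and 0.203, and day 4 and proliferating samples r = 0.579, -0.17 and 0.362. Quadriceps and day 4 samples share no title number and gave r = 0.117, 0.277 and 0.256 by replicate. There every sample matched its own replicate best. These values do not settle whether the number pairs samples, so blocked values are given as alternatives. For quadriceps and day 4 the replicate block changed no call, and the title number as a random block ended that of Pgam2. The alternatives were background correction, normalization, filters, the probe rule, blocks, array weights and leaving out samples.

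The members and gene lists were chosen with earlier results of these data known. Values in every sample were given for isoform sets, for the 3 largest called folds in each direction and for genes whose probes disagree. Gys1 and Gbe1 were added after their values were seen. Other genes of the pathway were named only among the 4 largest called in a comparison. A NOD/ShiLtj muscle sample without replicates was not part of the groups. Some genes of these lists are not reported here by name.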

Additional observations from a re-analysis of the deposited data

How the results depend on the processing

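Over all comparisons 2279 log2 changes of called genes were recomputed under the alternatives. Of these 2075 kept their call and direction, 204 kept their direction but lost the call (98 of them with a sample left out), and 0 reversed. The 13 lower calls of proliferating myoblasts against stem cells became 6 where only genes above background in both groups were tested. Between proliferating and passage 0 myoblasts the 1 higher call became 0 with the 2 groups only, 5 with array weights (whose estimation stopped before full convergence) and 0 to 7 with a sample left out. The 0 lower calls there became 1 under normexp, the authors' values, the slide block, the replicate block and the title number as a block, 2 under quantile normalization and array weights, and 0 to 2 with a sample left out. Day 1 against proliferating myoblasts went to 0 higher calls with the 2 groups only and 3 to 10 with a sample left out, and its 1 lower call to 0 with no filter and with the 2 groups only, 3 with array weights and 0 to 1 with a sample left out. Day 4 against proliferating myoblasts had 1 lower call with the 2 groups only. Day 4 against day 1 had 7 higher and 2 lower calls with no filter, 5 and 1 with the 2 groups only, and 5 to 11 and 2 to 5 with a sample left out. The cause of these changes was not tested, apart from the fewer samples or genes that such settings use by construction. The only reversal of an isoform difference was that of Pfkfb3 minus Pfkfb4 in day 4 against proliferating myoblasts, at -0.57 with the brightest probe and 0.43 with the mean of all probes.

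The replicate block ended the call of Pygm in day 4 against day 1 myotubes (adjusted p = 0.051) and in day 1 against proliferating myoblasts (adjusted p = 0.061), and no other call among the groups that share title numbers. For stem cells and passage 0 myoblasts the replicate number does not follow the titles: the block ended the call of Pgm2 in proliferating myoblasts against stem cells and added Pygl between the myoblast groups. A replicate block by the number in the titles, added after seeing the data, took that number as a random block (correlation 0.217) and so joined passage 0 replicate 1 to proliferating replicate 2. It ended 1 call, that of Pgam2 in quadriceps against day 4. The median log2 change of all genes was -0.05 with quantile normalization and -0.26 with 75th percentile scaling in passage 0 myoblasts against stem cells, and -0.07 and 0.14 with those scalings between the myoblast groups. Low signal limits Fbp1, Fbp2, Pgm2, Pygl, Slc2a3, Ppp1r3a and Ppp1r3c, which had no sample above background in at least 1 group.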

Other observations

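A single muscle sample of strain NOD/ShiLtj stood outside the groups. Of the 45 genes, 29 lay inside the range of the 3 quadriceps samples in it, 8 above and 8 below, and 0 lay over 1 log2 unit outside. The 8 above were Hk1, Gpi1, Aldoc, Tpi1, Eno1, Eno2, Phkb and Gpd1, and the 8 below Hk2, Pfkp, Fbp1, Pygl, Pygb, Gys1, Phkg2 and Ugp2. Fbp1, and Pgm2 among those inside, were above background neither in quadriceps nor in the NOD/ShiLtj sample, so their places carry little meaning. Pfkp lay farthest from the range, by 0.52 log2 units. When the sample was added to the quadriceps group, all 31 calls of quadriceps against day 4 myotubes were kept and Tpi1 was called as well.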
